A study of Mus musculus with 4 samples.

Results

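The genes described are the transcription factors of the hypoxia and aryl hydrocarbon response, their partners and the enzymes that control them, measured in regulatory T cells (Tregs) with and without miR-142. They are 10 genes of the 22180 with a probe set assigned to a single symbol on the array: Epas1, Hif1a, Hif3a, Arnt2, Arnt, Ahr, Ahrr, Vhl, Egln1 and Egln3. A gene was found by its platform symbol, and where it had several probe sets the one with the highest mean over the arrays was kept. All 10 were found, 9 of them with 1 probe set carrying that symbol alone. The set was drawn up with results of these arrays in view, and Epas1 and Arnt2 were chosen by their log2 difference between the groups, so their values are given as a description with no test. TregΔ142 Tregs came from FoxP3YFP-Cre x Mir142fl/fl mice, in which Cre made from the Foxp3 locus removes the floxed Mir142 gene in Foxp3-expressing cells. WT Tregs came from FoxP3YFP-Cre x Mir142+/+ mice, so both groups carried the YFP-Cre allele. All mice were of the C57BL/6 strain by the labels, and the study's methods add that the floxed allele was made in 129S embryonic stem cells and then backcrossed. CD4+ CD25+ YFP+ cells were sorted from spleens and lymph nodes and used without culture, 2 arrays per group and 4 in all. The study's methods state that each cell population was made in duplicate and that the duplicates were processed individually. The labels give no age for these mice and do not say whether the arrays of a group came from separate animals or pools. A p-value therefore reflects only how these samples vary, and that variation may be technical.

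Cells read oxygen through the hypoxia-inducible factors (HIFs), which are pairs of an α subunit and a β subunit of the bHLH-PAS family. When oxygen is plentiful, prolyl hydroxylases of the EGLN (PHD) family mark the α subunit, and the von Hippel-Lindau protein VHL then directs it to the proteasome. In low oxygen the α subunit escapes, joins the β subunit ARNT or its relative ARNT2, and switches on genes of glycolysis, iron handling and vessel growth. The aryl hydrocarbon receptor AHR is a bHLH-PAS protein of the same kind that waits in the cytoplasm with HSP90 until it binds a ligand, then pairs with the same partner ARNT. In CD4+ T cells HIF-1α is best known for favouring glycolysis and the Th17 fate, and AHR for its part in Th17 cells and in Tregs of the gut. Much of this control acts on protein stability, which an array of RNA does not measure.

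miR-142, the microRNA removed in TregΔ142 Tregs, yields a mature strand from each arm of its hairpin. Both are shown because the groups were made to differ in this gene. The study also reports inflammatory disease in TregΔ142 mice. Whether it had begun in these animals is not stated, and its part in the values was not tested. The sequences are those of RefSeq for mouse build GRCm38.p6, written 5′ to 3′, with the seed (bases 2 to 8) in capitals. The 5p strand lies at chr11:87756867-87756887 and the 3p strand at chr11:87756903-87756925, both on the plus strand. The seeds differ.
mmu-miR-142a-5p: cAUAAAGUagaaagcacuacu
mmu-miR-142a-3p: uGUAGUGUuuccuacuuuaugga

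RefSeq promoter windows of the same build, from 250 bases before to 50 bases after the gene start, were at hand for 8 of the 10 genes, not including Epas1 and Ahr. They were searched on both strands for ACGTG and GCGTG. Both are forms of the core of the hypoxia response element, and GCGTG is also the core of the xenobiotic response element to which AHR and ARNT bind. ACGTG overlaps the E-box CACGTG, which occurs in 7.15% of 32851 promoter windows. ACGTG was present in 19.6% of these windows, GCGTG in 32.4% and either in 43.8%. Of the 8 windows, 6 held at least 1 match, and those of Arnt2 and Vhl held none. The windows shown, with matches in capitals, are that of Arnt2, 1 of the 2 genes on which the results turn, and those of Egln3 and Ahrr, the genes known for feedback in the HIF and the AHR arm. The Arnt2 window (chr7:84409989-84410288, minus strand) has no match, which says only that these letters are not in this window. The Egln3 window (chr12:54203825-54204124, minus strand) has 1 ACGTG that begins 229 bases before the start. The Ahrr window (chr13:74292282-74292581, minus strand) has 3 GCGTG matches, beginning 107, 82 and 27 bases before the start. A match is a description of the sequence, not a site of binding.
Arnt2: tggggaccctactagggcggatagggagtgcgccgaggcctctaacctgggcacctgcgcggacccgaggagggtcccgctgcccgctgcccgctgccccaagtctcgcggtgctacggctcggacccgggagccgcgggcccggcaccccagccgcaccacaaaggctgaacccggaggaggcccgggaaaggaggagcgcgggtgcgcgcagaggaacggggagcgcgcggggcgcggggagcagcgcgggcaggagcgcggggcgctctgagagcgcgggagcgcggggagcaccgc
Egln3: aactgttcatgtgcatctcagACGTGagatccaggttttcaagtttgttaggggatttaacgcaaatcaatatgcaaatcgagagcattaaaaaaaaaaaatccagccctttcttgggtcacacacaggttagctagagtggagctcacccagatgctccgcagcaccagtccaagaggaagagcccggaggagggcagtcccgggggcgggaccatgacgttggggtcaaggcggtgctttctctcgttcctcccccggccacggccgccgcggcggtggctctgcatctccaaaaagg
Ahrr: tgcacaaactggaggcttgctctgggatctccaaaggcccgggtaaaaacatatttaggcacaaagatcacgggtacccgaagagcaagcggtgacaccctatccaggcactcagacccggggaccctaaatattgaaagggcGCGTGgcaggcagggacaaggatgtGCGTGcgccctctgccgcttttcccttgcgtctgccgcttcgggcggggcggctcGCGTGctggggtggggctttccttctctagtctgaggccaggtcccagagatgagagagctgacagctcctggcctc

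Mir142 itself, the targeted gene, had log2 values of 6.44 and 5.96 on the TregΔ142 arrays, against 8.88 and 9.26 on the WT arrays, a difference of −2.87 (SE 0.20, limma adjusted p = 0.0219). The sources used here do not place its probes relative to the deleted segment. Foxp3, the factor that defines Tregs, read 11.84 and 11.81 in TregΔ142 Tregs, against 11.70 and 11.67 in WT Tregs, and all 9 Treg markers examined were above the range of olfactory receptor genes. That range was used throughout as a gauge of low signal, since the table has no detection calls: the 1108 probe sets of olfactory receptor (Olfr) genes, which Tregs are not known to use, had a 5th to 95th percentile of 2.62 to 6.16 on the log2 scale. Probe sets differ in their response, so the range is no detection test and levels of different genes are not ranked here. Of the 9 Treg markers, 6 were higher in TregΔ142 without overlap and 0 were lower, beside 23.9% and 19.8% of all probe sets. In limma, 2 were higher at an unadjusted p under 0.05 (6.82% of all probe sets) and 0 at an adjusted one. These were Tnfrsf18 at 0.57 (SE 0.14) and Il2ra at 0.42 (SE 0.12). Array medians lay between 6.16 and 6.22, and precision is limited by there being 4 arrays.

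**Figure D1:**
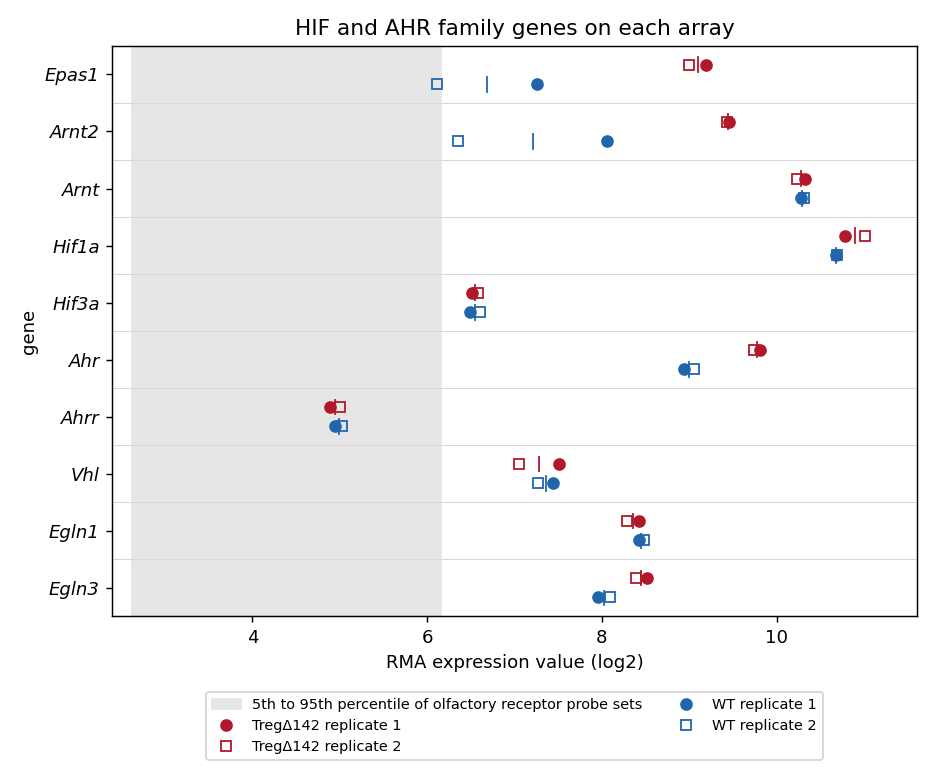
Log2 RMA expression value (horizontal axis) of the 10 genes (rows) on each of the 4 arrays: TregΔ142 in red above, WT in blue below, filled circles for replicate 1 and open squares for replicate 2, short vertical bars for group means. The grey band is the 5th to 95th percentile of the 1108 olfactory receptor probe sets. Epas1 and Arnt2 stand apart by group, with WT values 1.15 and 1.70 apart, and Ahrr lies inside the band.

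Across the family, 2 of the 10 genes were at least 2-fold higher in TregΔ142 Tregs with an unadjusted p under 0.05, and none was lower. At that threshold 0.391% of the 23521 tested probe sets were higher. The study's own threshold was 2-fold and P under 0.05, and it does not say whether that P was adjusted. The 2 genes are Epas1 and Arnt2, picked for this difference, so nothing is read from that count or from those below that include them. No member reached an adjusted p under 0.05 in limma, a line crossed by 6 probe sets, or 0.0255%. At an unadjusted p under 0.05, 4 members were higher (6.82% of all probe sets) and 0 were lower (4.85%), and without Epas1 and Arnt2 2 of 8 were higher. Both TregΔ142 arrays were above both WT arrays at 5 members (23.9% of all probe sets) and below them at 1 (19.8%), while the groups overlapped at the other 4. Without Epas1 and Arnt2, 3 of 8 lay above and 1 below. The median difference over the 10 genes was 0.11, TregΔ142 minus WT on the log2 scale, but −0.0053 over the 8 without Epas1 and Arnt2, beside 0.01 over all tested probe sets.

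Epas1 encodes HIF-2α, the α subunit best known from endothelium, the erythropoietin-making cells of the kidney and macrophages. It had log2 values of 9.19 and 8.996 in TregΔ142 Tregs, against 7.26 and 6.11 in WT Tregs. Both TregΔ142 arrays were high and were 0.20 apart, with a larger gap at 36.6% of probe sets. The lower TregΔ142 array was 1.74 above the higher WT array. The WT arrays differed by 1.15 between themselves, a gap that only 0.395% of probe sets exceeded, and WT replicate 2 lay within the olfactory receptor range. The means were 9.09 ± 0.14 in TregΔ142, against 6.69 ± 0.81 in WT (SD, n = 2 each), a difference of 2.41 (SE 0.34), or 5.31-fold. A larger difference in either direction was found at 0.0298% of the tested probe sets. Without WT replicate 2 the difference was 1.84, and without WT replicate 1 it was 2.98. Since the RNA came from whole sorted populations, more cells using a gene and more RNA per cell cannot be told apart. The study listed Epas1 among its candidate miR-142-5p targets, partly from these arrays. In its reporter assay the region with the predicted Epas1 site gave modest repression, which mutating the seed match did not relieve. The study judged that site not functional.

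Hif1a, the gene of the broadly used α subunit HIF-1α, differed far less. Its values were 10.78 and 11.01 in TregΔ142 Tregs, against 10.68 and 10.69 in WT Tregs. The TregΔ142 arrays were both above the WT arrays, but by 0.09 at the nearest, while they were 0.23 from each other. The difference was 0.21 (SE 0.13, 95% interval −0.10 to 0.52), with an adjusted p of 0.578 in limma over all tested probe sets. A second probe set with the Hif1a symbol read 6.27 and 6.26 in TregΔ142, against 6.61 and 6.57 in WT, lower by group (difference −0.32, limma adjusted p = 0.359). The probe sets of Hif1a therefore ran in opposite directions, and neither passed the test. Another probe set, shared between Hif1a and the pseudogene S100a11-ps, differed by 0.03 and was not tested.

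Hif3a, whose product can restrain the other α subunits, read 6.52 and 6.58 in TregΔ142 Tregs, against 6.49 and 6.61 in WT Tregs. The TregΔ142 values lay between the WT values. The difference was 0.00 (SE 0.12, 95% interval −0.28 to 0.29, limma adjusted p = 0.997).

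Of the β subunit genes, Arnt2 had values well apart by group and Arnt had values that overlapped. Arnt2, best known from neurons and the hypothalamus, had values of 9.45 and 9.43 in TregΔ142 Tregs, against 8.06 and 6.36 in WT Tregs. The TregΔ142 arrays were nearly identical, and the WT arrays were 1.70 apart, more than at all but 0.145% of probe sets. WT replicate 2, at 6.36, was just above the top of the olfactory receptor range, 6.16. The nearest arrays of the groups were 1.37 apart, which is less than that gap within WT. The means were 9.44 ± 0.017 in TregΔ142, against 7.21 ± 1.20 in WT (SD, n = 2 each), a difference of 2.23 (SE 0.49), or 4.70-fold. The difference was 1.38 without WT replicate 2 and 3.08 without WT replicate 1.

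Arnt, the partner that HIF α subunits and AHR share, read 10.33 and 10.23 in TregΔ142 Tregs, against 10.28 and 10.31 in WT Tregs. The groups overlapped. The difference of −0.01 (SE 0.12) had a 95% interval of −0.29 to 0.26, with a limma adjusted p of 0.979.

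**Figure D2:**
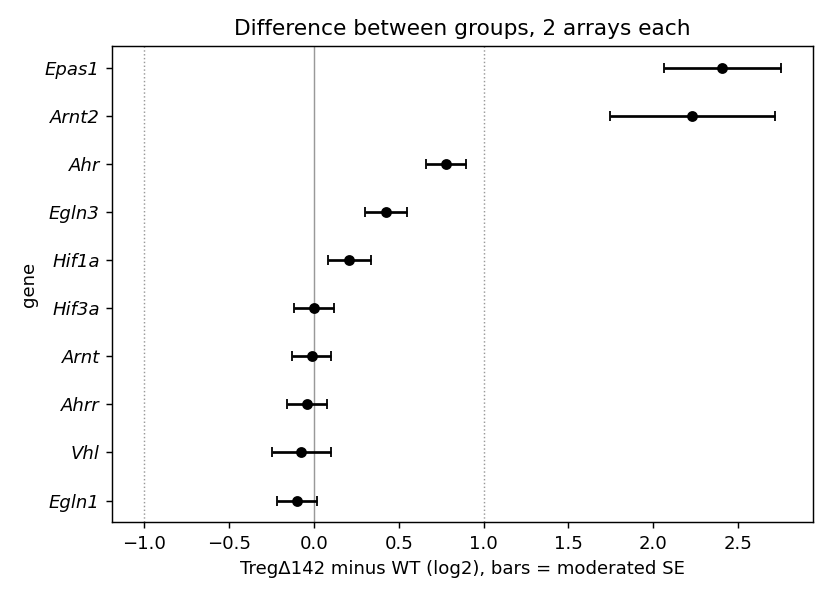
Difference between the groups for each of the 10 genes (rows), TregΔ142 minus WT on the log2 scale, from 2 arrays per group; bars are the moderated standard error and dotted lines mark a 2-fold difference either way. Epas1 at 2.41 and Arnt2 at 2.23 lie beyond the 2-fold line, Ahr at 0.78 and Egln3 at 0.42 lie short of it, and the other 6 genes lie between −0.10 and 0.21.

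Ahr, the receptor itself, had the next difference in size among the 10. Its values were 9.81 and 9.74 in TregΔ142 Tregs, against 8.94 and 9.05 in WT Tregs. Both TregΔ142 arrays were above both WT arrays by at least 0.69, and arrays of a group were within 0.12 of each other. The means were 9.78 ± 0.050 in TregΔ142, against 8.996 ± 0.082 in WT (SD, n = 2 each). The difference was 0.78 (SE 0.12, 95% interval 0.50 to 1.07), or 1.72-fold, and 1.20% of tested probe sets had a larger one. Its limma adjusted p of 0.0907 did not pass the threshold of 0.05. Other settings gave adjusted p-values of 0.042 to 0.514, with 0.042 where the prior spread followed intensity and 0.0467 where only probe sets above the median level were tested.

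Ahrr, the repressor that AHR switches on and that then competes for ARNT, gave low values in both groups: 4.89 and 5.01 in TregΔ142 Tregs, against 4.95 and 5.03 in WT Tregs. It was the only member within the olfactory receptor range on the mean of the arrays. The difference was −0.04 (SE 0.12, 95% interval −0.33 to 0.25, limma adjusted p = 0.927).

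The oxygen-dependent regulators were measured at Egln1, Egln3 and Vhl. Egln3 encodes PHD3, a hydroxylase whose gene is itself switched on by HIF in many cells. It read 8.51 and 8.39 in TregΔ142 Tregs, against 7.96 and 8.10 in WT Tregs. The TregΔ142 arrays were above the WT arrays by at least 0.29, while arrays of a group were 0.13 apart in TregΔ142, against 0.14 apart in WT. The difference was 0.42 (SE 0.12, 95% interval 0.13 to 0.72), or 1.34-fold, with a limma adjusted p of 0.284.

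Egln1, the gene of PHD2, the main oxygen sensor of most cells, read 8.42 and 8.29 in TregΔ142 Tregs, against 8.43 and 8.48 in WT Tregs. The groups did not overlap, but the nearest arrays were separated by less than 0.01. The difference was −0.10 (SE 0.12, 95% interval −0.39 to 0.19, limma adjusted p = 0.783). Vhl, the substrate receptor of the ligase that removes hydroxylated α subunits, read 7.51 and 7.05 in TregΔ142 Tregs, against 7.44 and 7.27 in WT Tregs. Its WT values lay between the TregΔ142 values, and the difference was −0.07 (SE 0.18, 95% interval −0.50 to 0.35, limma adjusted p = 0.906). Over Hif1a, Hif3a, Arnt, Ahrr, Egln1 and Vhl, none of the 95% intervals of the kept probe sets reached below −0.50 or above 0.52 on the log2 scale.

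The gap between the WT arrays at Epas1 and Arnt2 ran the same way as that of most macrophage and monocyte markers. The median of WT replicate 1 minus WT replicate 2 was 0.91 over these markers. It was also positive, though smaller, over the B cell (0.19), dendritic cell (0.16), Treg (0.12) and fibroblastic stroma (0.11) markers. Over the endothelial and neutrophil markers it was −0.05 and −0.50. Of 13 macrophage and monocyte markers, 11 were above the olfactory receptor range on the mean of the arrays, which WT replicate 1 raised for most of them. Over the 13, the mean log2 value was 6.69 and 6.46 on the TregΔ142 arrays and 7.29 and 6.38 on the WT arrays. The sum of the log2 values, which restates that mean, was 84.0 to 87.0 in TregΔ142, against 82.9 to 94.7 in WT. Adgre1, the gene of F4/80, read 6.17 and 5.53 in TregΔ142, against 7.35 and 5.83 in WT. Its values on replicate 2 of both groups lay within the olfactory receptor range. Csf1r read 7.14 and 6.69 in TregΔ142, against 8.22 and 6.81 in WT. WT replicate 1 was the highest array for 11 of the 13 markers and the higher of the WT arrays for Epas1 and Arnt2. The other markers, Lyz2 and Itgam, were lowest on WT replicate 1, and Lyz2, the lysozyme gene, read 9.31 and 8.68 in TregΔ142, against 8.05 and 8.64 in WT, above WT on both TregΔ142 arrays (difference 0.65, SE 0.27, limma adjusted p = 0.423).

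Endothelial cells, which use Epas1, were also examined through 14 markers. Of these, 11 were within the olfactory receptor range, and the mean log2 values were 5.93 and 5.96 in TregΔ142, against 5.84 and 5.94 in WT. The sum of the log2 values, which restates that mean, was 83.1 to 83.4 in TregΔ142, against 81.8 to 83.2 in WT. Cdh5, the endothelial cadherin, read 6.60 and 6.44 in TregΔ142, against 6.28 and 6.66 in WT, with overlap of the groups. At an unadjusted p under 0.05, 2 of the 14 were higher, Tek at 0.37 (SE 0.12) and Robo4 at 0.32 (SE 0.12), both within the olfactory receptor range, and 1 was lower, Pecam1, which leukocytes also express, at −0.33 (SE 0.11). The mean of 11 neutrophil markers was 6.29 and 6.53 in TregΔ142, against 5.92 and 6.58 in WT, with 8 of the 11 lowest on WT replicate 1. Mmp9, the gelatinase gene, read 8.22 and 7.47 in TregΔ142, against 7.06 and 6.82 in WT (difference 0.90, SE 0.25, limma adjusted p = 0.267), while Ly6g and Retnlg differed by −0.28 (SE 0.47) and −0.35 (SE 0.40). The part of any of these cells in the members' values was not tested.

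**Figure D3:**
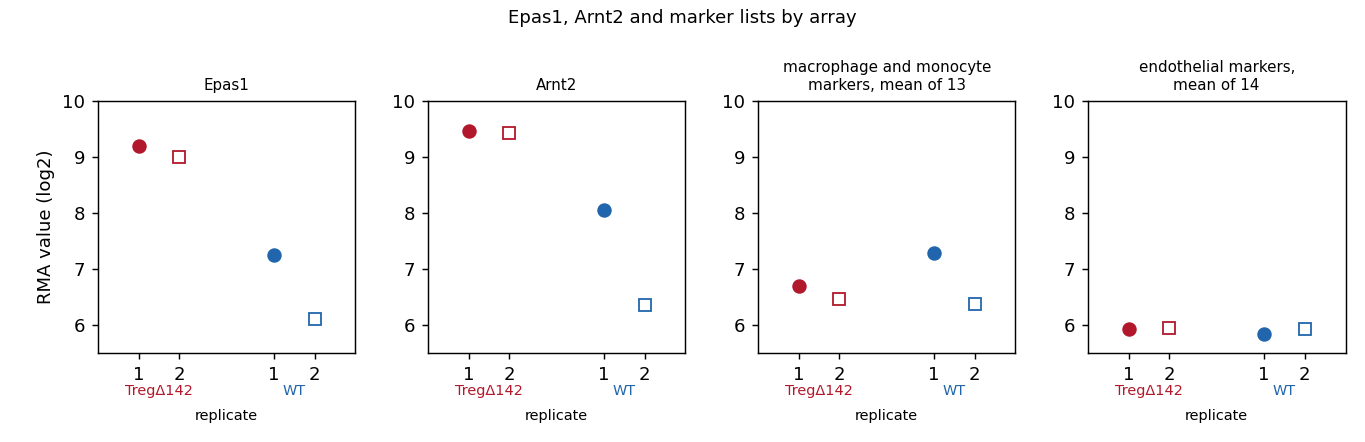
Log2 RMA values of Epas1, Arnt2, the mean of 13 macrophage and monocyte markers and the mean of 14 endothelial markers (4 panels, shared vertical scale from 5.5 to 10) on the TregΔ142 arrays (red) and the WT arrays (blue), filled circles for replicate 1 and open squares for replicate 2. WT replicate 1 is above WT replicate 2 for Epas1, Arnt2 and the macrophage markers, and the endothelial mean runs from 5.84 to 5.96.

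The genes with the most similar pattern over the 4 arrays were found by the root-mean-square distance between log2 values after each gene's mean was removed. Epas1 and Arnt2 were 0.22 apart, placing Arnt2 2nd in the order around Epas1 and Epas1 4th in the order around Arnt2. Both were chosen for a large difference between the groups, and the distance is not scaled. These ranks therefore follow in part from that choice, and no tie between the genes is read from them. Nearest to Epas1 was Adam8, a surface protease, at 0.21, with values of 9.29 and 9.33 in TregΔ142, against 7.76 and 6.79 in WT. It was followed, after Arnt2, by Tspoap1 at 0.26, Penk, the proenkephalin gene, at 0.28 and Enah, an actin regulator, at 0.31. Nearest to Arnt2 was Lilrb4a, an inhibitory receptor, at 0.15, with values of 11.12 and 11.14 in TregΔ142, against 10.09 and 8.30 in WT. Klrg1, a lectin-like receptor of differentiated T cells, followed at 0.21, Tspoap1 at 0.22 and, after Epas1, the adhesion molecule gene Dscam at 0.25. In all of these genes both TregΔ142 arrays were above both WT arrays, and WT replicate 1 was above WT replicate 2. This is the order seen at Epas1 and Arnt2, and genes picked for nearness to them share it by that choice. Tspoap1, on both lists, is the gene that follows Mir142 in the RefSeq gene order. With 4 arrays such a likeness is a description of these samples.

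The genes that the HIFs are known to act on were taken as lists, leaving out the 10 members. Of 36 measured genes known to respond to HIF, none reached an adjusted p under 0.05, and 2 were at least 2-fold higher with an unadjusted p under 0.05, beside 0.391% of all probe sets. At an unadjusted p under 0.05, 9 were higher and 1 was lower, beside 6.82% and 4.85% of all probe sets, and TregΔ142 arrays lay wholly above WT arrays at 19 and below at 5, beside 23.9% and 19.8%. The median difference was 0.13, against 0.01 over all tested probe sets, within a range of −0.33 to 1.12.

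The 2 past the 2-fold line were Ddit4 and Bhlhe40. Ddit4, whose product REDD1 restrains mTORC1, read 10.31 and 9.95 in TregΔ142 Tregs, against 9.03 and 8.999 in WT Tregs, a difference of 1.12 (SE 0.15, limma adjusted p = 0.0792). Bhlhe40, a transcription factor that shapes T cell cytokine programmes, read 10.43 and 10.36 in TregΔ142, against 9.70 and 9.06 in WT, a difference of 1.02 (SE 0.21, limma adjusted p = 0.178). The groups did not overlap at either gene. Both also respond to signals other than hypoxia.

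Glycolytic and lactate-handling members of the HIF list had differences in both directions. Tpi1, triosephosphate isomerase, read 9.78 and 9.83 in TregΔ142, against 9.14 and 9.39 in WT, a difference of 0.54 (SE 0.13, limma adjusted p = 0.233). Slc16a3, the lactate exporter MCT4, read 7.62 and 7.73 in TregΔ142, against 7.15 and 7.24 in WT, a difference of 0.48 (SE 0.12, limma adjusted p = 0.236). Ndrg1, a stress-responsive gene used as a marker of hypoxia, differed by 0.52 (SE 0.18) and Ak4, a mitochondrial adenylate kinase with values in the olfactory receptor range, by 0.43 (SE 0.12). The glycolytic enzyme genes Pgk1 and Gapdh differed by 0.24 (SE 0.13) and 0.08 (SE 0.13), and none of these 4 genes passed the test. Pdk1, which holds pyruvate back from the mitochondria, was the gene lower at an unadjusted p under 0.05, with 8.38 and 8.30 in TregΔ142, against 8.70 and 8.63 in WT (difference −0.33, SE 0.12, limma adjusted p = 0.363). The groups also did not overlap at Pfkfb3 and Aldoc, lower by group with differences of −0.21 (SE 0.14) and −0.18 (SE 0.12). Higher without overlap were Hk2 at 0.22 (SE 0.13), Slc2a1 at 0.18 (SE 0.11) and Pfkl at 0.15 (SE 0.12). So were Slc2a3 at 0.11 (SE 0.12) and Pfkfb4 at 0.06 (SE 0.11). Pdk1, Pfkfb3, Aldoc and the genes named after them here were named after their values were seen.

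The genes reported to depend on HIF-2α, the product of Epas1, had a median difference of 0.04. Of 12 measured, 8 were in the olfactory receptor range, and the differences lay in a range of −1.07 to 0.32. None reached an adjusted p under 0.05 or the 2-fold threshold, and 1 was higher at an unadjusted p under 0.05, a share near the 6.82% of all probe sets. That gene was Pou5f1, at 6.11 and 5.97 in TregΔ142, against 5.70 and 5.73 in WT (difference 0.32, SE 0.12, limma adjusted p = 0.383), all values within the olfactory receptor range. Slc11a2, the iron importer DMT1, read 8.11 and 8.15 in TregΔ142, against 7.87 and 8.02 in WT, a difference of 0.18 (SE 0.12). Epo, the erythropoietin gene, read 5.59 and 5.74 in TregΔ142, against 5.54 and 5.42 in WT, within the olfactory receptor range. The largest difference was at Slc40a1, the iron exporter ferroportin of macrophages, which read 6.39 and 6.25 in TregΔ142, against 8.64 and 6.14 in WT. WT replicate 1 alone was high, as for the macrophage markers, and the difference of −1.07 (SE 0.71) rested on it.

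Genes known to respond to AHR had a median difference of 0.09 over 13 measured, 8 of them in the olfactory receptor range, with a range of −0.20 to 1.56. At an unadjusted p under 0.05, 3 were higher and 0 lower, beside 6.82% and 4.85% of all probe sets, and 1 of these was past 2-fold, beside 0.391%. That gene was Gpr15, the receptor that brings T cells to the large intestine, with 9.28 and 8.64 in TregΔ142 Tregs, against 7.55 and 7.25 in WT Tregs. The groups did not overlap, and the difference was 1.56 (SE 0.23), or 2.94-fold, with a limma adjusted p of 0.0865. Entpd1, the ectonucleotidase CD39, read 9.60 and 9.82 in TregΔ142, against 9.03 and 8.46 in WT, a difference of 0.97 (SE 0.20, limma adjusted p = 0.18). Kit, the receptor for stem cell factor and the third of these genes, differed by 0.28 (SE 0.11) at values near the edge of the olfactory receptor range.

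None of the 13 measured AHR-responsive genes reached an adjusted p under 0.05, Gpr15 and the genes more often used as a readout of AHR included. Cyp1a1, the cytochrome that AHR ligands classically induce, read 5.80 and 6.05 in TregΔ142, against 6.05 and 5.98 in WT, within the olfactory receptor range (difference −0.09, SE 0.13, limma adjusted p = 0.836). Tiparp, an ADP-ribosyltransferase that acts as AHR feedback, read 8.75 and 8.28 in TregΔ142, against 8.62 and 8.24 in WT, a difference of 0.09 (SE 0.20, limma adjusted p = 0.905). Cyp1b1, named after its values were seen, read 4.68 and 4.56 in TregΔ142, against 4.71 and 4.74 in WT, lower without overlap but within the olfactory receptor range (difference −0.10, SE 0.12, limma adjusted p = 0.771). How far these genes and Gpr15 differ in response was not tested.

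**Figure D4:**
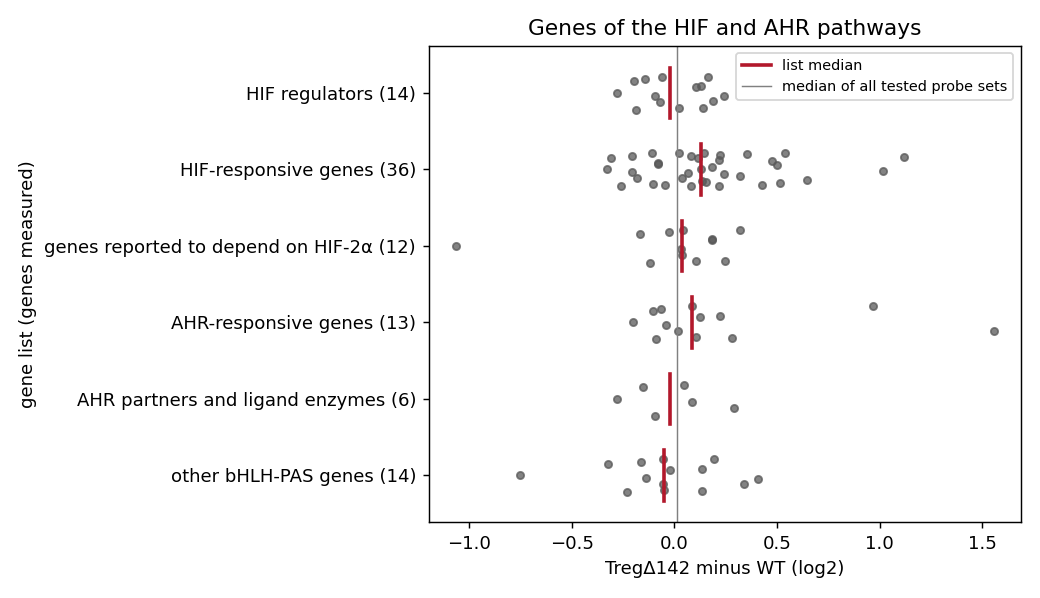
Difference of each measured gene (points, TregΔ142 minus WT on the log2 scale) in 6 pathway lists (rows, genes measured in brackets), with list medians as red bars and the median of all 23521 tested probe sets, 0.01, as a grey line; the vertical scatter within a row has no meaning. List medians run from −0.05 to 0.13, and Gpr15 at 1.56, Ddit4 at 1.12 and Slc40a1 at −1.07 lie farthest out.

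The remaining machinery of the pathways had differences of −0.28 to 0.29. Among 14 other HIF regulators, all above the olfactory receptor range, the median difference was −0.02 and 0 passed any threshold. Cul2, the scaffold of the VHL ligase, differed by 0.24 (SE 0.13), Elob, the elongin B subunit of that ligase, by 0.19 (SE 0.15), and Siah2, a ligase for prolyl hydroxylases, by −0.28 (SE 0.19). The acetyltransferase coactivators Crebbp and Ep300 differed by −0.19 (SE 0.12) and 0.02 (SE 0.12), and Cited2, which competes with HIF for them, by −0.07 (SE 0.15). Among 6 measured AHR partners and enzymes that make AHR ligands from tryptophan, 0 passed any threshold and 4 were in the olfactory receptor range. Hsp90aa1, an HSP90 chaperone gene, differed by −0.09 (SE 0.12) and Ido1, which starts the kynurenine route, by 0.05 (SE 0.13).

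Other bHLH-PAS genes gave a comparison within the protein family to which Epas1 and Arnt2 belong. Of 14 measured, the median difference was −0.05, in a range of −0.75 to 0.41, with 1 higher and 1 lower at an unadjusted p under 0.05, shares near the 6.82% and 4.85% of all probe sets. The lower was Npas4, an activity-induced factor, with 6.71 and 6.23 in TregΔ142, against 6.78 and 7.66 in WT (difference −0.75, SE 0.30, limma adjusted p = 0.418). The higher was Arntl2, a clock gene relative of Arnt, with 6.18 and 6.21 in TregΔ142, against 5.90 and 5.68 in WT (difference 0.41, SE 0.13, limma adjusted p = 0.321). Its mean over the arrays and both WT values lay within the olfactory receptor range. Arntl, the clock gene of BMAL1, differed by 0.20 (SE 0.13), Per3 by 0.34 (SE 0.14) and the coactivator genes Ncoa2 and Ncoa3 by −0.23 (SE 0.12) and 0.13 (SE 0.12). None of the 14 was past 2-fold, and the difference between Arnt2 or Epas1 and these relatives was not tested, since both were chosen for their size.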

How the data were processed

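Total RNA of sorted Tregs was amplified to cDNA with an Ovation Pico kit and hybridised to Affymetrix Mouse Gene ST 2.0 arrays by the authors. The deposited log2 values, 1 per probe set, were made by the authors with RMA (background correction, quantile normalization and probe summary). The submitters' processing notes also name oligo, without a version. The log2 scale was inferred from RMA and from values of 1.87 to 13.9. Quantile normalization hides a change shared by most transcripts.

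Of 41345 rows, the platform annotation gave a single symbol to 23521, which were tested, several symbols to 1820 and none to 16004. TregΔ142 was compared with WT in limma 3.58.1 (lmFit, eBayes, no block, no filter) under R 4.3.3, with Benjamini-Hochberg adjustment over the 23521 probe sets. Intervals are 95% intervals of the moderated fit. The fit was tested on simulated data. The 10 members and the gene lists (165 of 185 names matched) were chosen with earlier results of these data known. Named genes were all members, per list up to 6 with the smallest unadjusted p and up to 2 others of highest mean, and the 5 nearest in pattern to Epas1 and to Arnt2. Itgam, Ly6g and Retnlg were also named after their values were seen. Groups came from the sample titles. The labels number the replicates in both groups without saying that a number marks shared animals, and same-numbered arrays deviated with r = −0.123 over probe sets. Alternatives were an intensity trend in the prior spread, the methods' t-test, only probe sets above the median level, all rows, median centring of arrays, the mean of a gene's probe sets, a replicate block and leaving out each array. Sequences were taken from RefSeq tables.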

Additional observations from a re-analysis of the deposited data

How the results depend on the processing

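Values are log2 differences, TregΔ142 minus WT, unless called counts. Epas1 and Arnt2 were higher in TregΔ142 in every alternative run, from 1.84 to 2.98 and from 1.38 to 3.08 when 1 array was left out, and at 2.36 and 2.18 with arrays centred on their medians. Ahr and Egln3 were higher, and Egln1 lower, in every alternative. Ahr, at 0.7809 in both, passed the adjusted threshold with the intensity trend (adjusted p = 0.042) and above the median level (adjusted p = 0.0467) and in no other. Signs turned for Arnt (−0.061 to 0.035 over left-out arrays), Hif3a (−0.057 to 0.062, and −0.045 with median centring), Ahrr (−0.098 to 0.017), Vhl (−0.30 to 0.15) and, with the mean of its probe sets, Hif1a (−0.057). None of these 5 was called in either direction, and the cause was not tested.

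Of all probe sets, 6 had an adjusted p under 0.05. The count was 115 with the intensity trend, 91 above the median level, 2 over all rows, 0 with the methods' t-test (2067 at an unadjusted p under 0.05), 5 with the replicate block and 0 to 128 with 1 array left out: 0 without TregΔ142 replicate 1 (2556 unadjusted), 0 without TregΔ142 replicate 2 (1819 unadjusted), 128 without WT replicate 1 and 46 without WT replicate 2. Leaving out 1 array leaves a lone sample that is assumed to vary like the other group. The 119 probe sets at the 2-fold threshold became 67 with the t-test, 293 over all rows, 120 with the block and 116 to 229 with 1 array left out. Pairing the numbers crosswise, added after seeing the data, gave 5 and 120. The replicate block changed no member's call.

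Some list medians moved. HIF regulators (−0.02) had −0.067 with median centring, −0.066 with the mean of probe sets and 3.1e-05 to 0.083 over left-out arrays. HIF-responsive genes (0.13) had 0.084 with median centring and 0.093 to 0.17 over left-out arrays. Genes reported to depend on HIF-2α (0.04) had 0.0077 above the median level, −0.0082 with median centring and 0.034 to 0.10 over left-out arrays. AHR-responsive genes (0.09) had 0.22 above the median level. Low signal limits Ahrr and most HIF-2α and AHR genes, which lay within the olfactory receptor range on the mean of the arrays. It also limits the WT levels of Epas1 and Arnt2. On WT replicate 2, Epas1 lay within that range and Arnt2 just above it.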
